A study of Mus musculus with 6 samples.

Results

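The genes described here were the 32 genes of glycolysis and pyruvate metabolism, from glucose uptake to the entry of pyruvate into the mitochondrion. They were chosen by name, *Gapdh* included, with earlier results of these data known. All 32 were found among the 25239 genes counted in the mouse hippocampus, and all 32 were among the 14445 genes that passed the filter on low counts. RNA was sequenced from 3 WT mice (Ube3am+/p+) and 3 Ube3am-/p+ mice, with 1 library per mouse. All 6 were male C57BL/6 mice aged 6 to 8 weeks. The Ube3am-/p+ mice lacked the maternal copy of *Ube3a* and kept the paternal copy, and serve as a model of Angelman syndrome (AS), a neurodevelopmental disorder. No other allele and no treatment was named for either genotype, and each library held RNA of the whole hippocampus, in which all cell types were mixed.

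Glycolysis splits glucose into pyruvate in the cytosol. Hexokinase traps the sugar, phosphofructokinase commits it to the pathway, and the later enzymes return ATP and NADH. Pyruvate is then either reduced to lactate, which moves between brain cells through monocarboxylate transporters, or carried into the mitochondrion, where the pyruvate dehydrogenase complex turns it into acetyl-CoA under the control of inhibitory kinases. In brain the pathway feeds synaptic activity, and astrocytes are held to be more glycolytic than neurons.

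The counts on genes ranged from 7293272 to 8675252 per WT library and from 8871052 to 11314409 per Ube3am-/p+ library. A single listed gene had between 46 and 19943 counts in a library. *Ube3a* itself, the gene targeted in these mice, had 104, 141 and 151 CPM (counts scaled to the total gene counts of a library) in WT mice 1, 2 and 3, and 96.8, 82.9 and 80.6 CPM in Ube3am-/p+ mice 1, 2 and 3. Its genotypes did not overlap, with a log2 fold change of -0.58 (SE 0.12, adjusted p = 0.0363). The call was lost without any 1 of WT mice 2 and 3 and Ube3am-/p+ mice 2 and 3, with values of -0.48 to -0.54, and after the correction for GC content and length on coding transcripts described below, with a value of -0.16 (adjusted p = 0.374). Its counts may include reads of *Snhg14*, which overlaps 1803 bases of *Ube3a* exons on the opposite strand. The libraries did not behave alike. Across genes, the deviation of a library from the mean of all 6 was related to the GC content of the transcripts with a Spearman rho of 0.045 in WT mouse 1 and 0.058 in Ube3am-/p+ mouse 1, but with -0.505 in WT mouse 2, -0.571 in WT mouse 3, 0.524 in Ube3am-/p+ mouse 2 and 0.529 in Ube3am-/p+ mouse 3. The mice numbered 1 therefore stood apart from the others in both genotypes, and GC content moved with genotype in the other 4 libraries. Results are given below as counted, after each library was adjusted for GC content and transcript length, and without the mice numbered 1.

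Of the 32 genes, 3 rose and 1 fell in Ube3am-/p+ mice compared to WT mice. The 3 that rose were *Pfkl*, a phosphofructokinase, *Tpi1*, triose phosphate isomerase, and *Pkm*, pyruvate kinase, by 1.51-fold, 1.34-fold and 1.33-fold. The gene that fell was *Slc16a7*, the monocarboxylate transporter MCT2, to 0.704 of its WT level. Genes were called at a Benjamini-Hochberg adjusted p below 0.05 in edgeR's quasi-likelihood test over all genes tested, with a fold change above 1.2. By the same rule 1.02% of all genes tested were called higher and 0.99% lower, beside 9.38% and 3.12% of the 32. At an unadjusted p below 0.05, 8 of the 32 were higher (12.2% of all genes tested) and 4 were lower (12.4% of all genes tested). The CPM of the 3 Ube3am-/p+ mice lay above those of all 3 WT mice for 10 of the 32 (10.8% of all genes tested) and below them for 6 (14.2% of all genes tested). The other 16 genes overlapped. The 16 without overlap reach the smallest p of an exact two-sided permutation test of 3 against 3 mice, 0.1, so single genes cannot pass 0.05 by that test.

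These 4 calls were lost when any 1 of 4 mice was left out. Without WT mouse 2, WT mouse 3 or Ube3am-/p+ mouse 2, edgeR called 0 genes at the same thresholds. At an unadjusted p below 0.05 there were 9 of the 32 each time, beside 14.2%, 14.8% and 14.6% of all genes tested. Without Ube3am-/p+ mouse 3 it called 2 genes, none of them among the 32, of which 10 had an unadjusted p below 0.05, beside 16.7% of all genes tested. Without WT mouse 1 it called 8 of the 32 higher and 1 lower, beside 8.96% and 8.67% of all genes tested. Without Ube3am-/p+ mouse 1 it called 6 higher and 2 lower, beside 6.53% and 5.96%. Without both mice numbered 1 it called 10 higher and 3 lower, beside 13.6% and 14.6% of all genes tested, in a comparison of 2 against 2 mice that called 4138 genes. At an unadjusted p below 0.05 there were then 20 of the 32, beside 41.4% of all genes tested. The 10 were *Pfkl*, *Tpi1*, *Pkm*, *Hk1*, *Aldoa*, *Aldoc*, *Gapdh*, *Gpi1*, *Pgk1* and *Mpc2*, and the 3 were *Slc16a7*, *Pdk3* and *Mpc1*. The log2 fold changes of the 4 called genes moved too, but kept their sign in each of these fits.

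**Figure D1:**
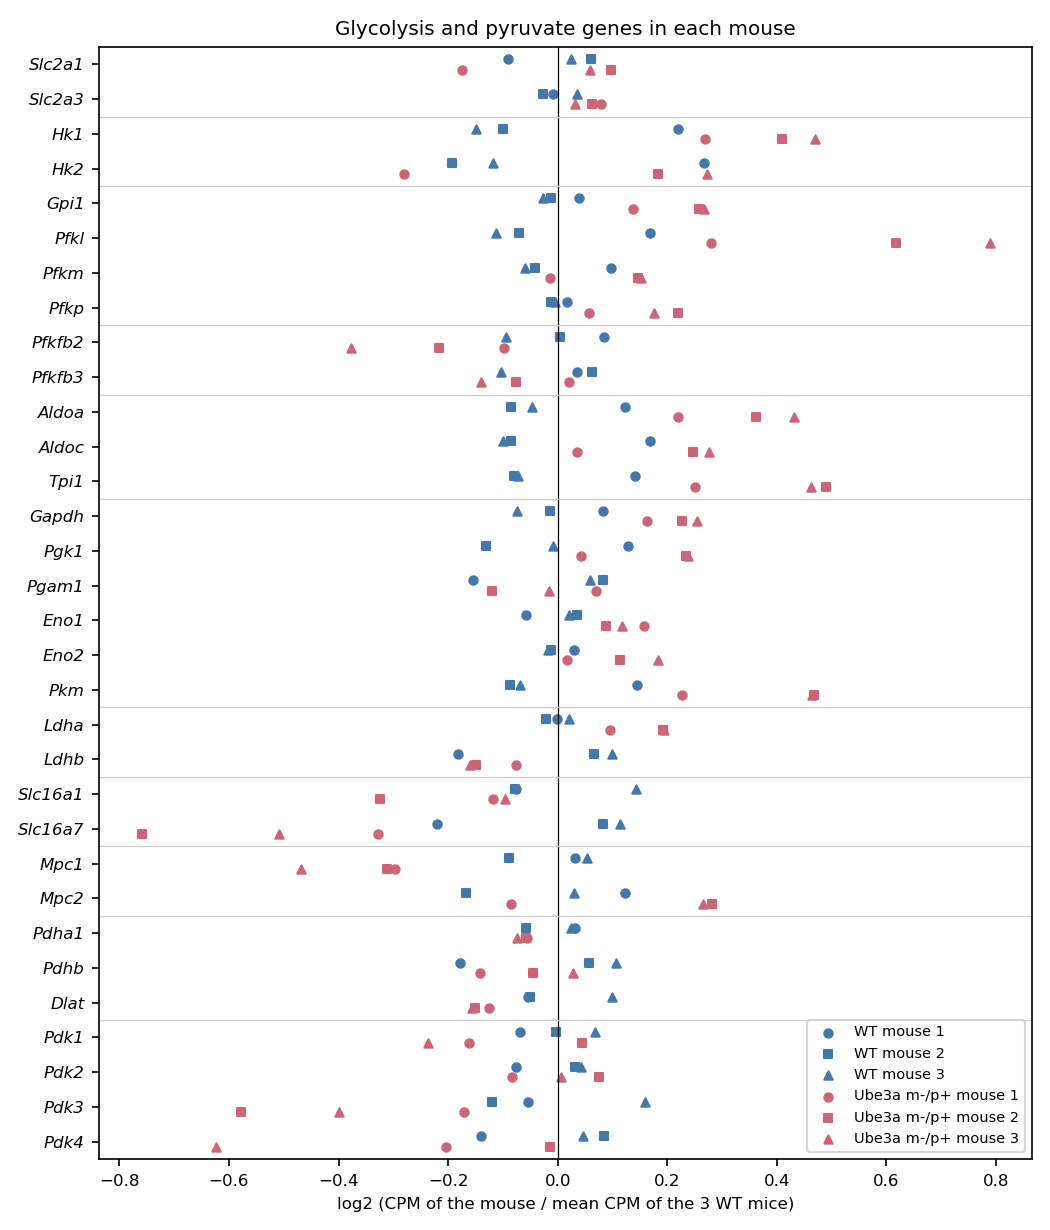
Each point is the log2 ratio of the CPM of 1 mouse to the mean CPM of the 3 WT mice, for the 32 genes in pathway order, with grey lines between steps. WT mice are blue and Ube3am-/p+ mice red, and the shape gives the mouse number. The red points of *Hk1*, *Pfkl*, *Aldoa*, *Tpi1* and *Pkm* lie right of all blue points, with the circle of Ube3am-/p+ mouse 1 closest to WT mouse 1, and those of *Slc16a7*, *Mpc1* and *Pdk3* lie left of all blue points.

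The genes split by their place in the pathway. Among the 15 genes of the steps from glucose to pyruvate, 14 had a log2 fold change above 0 (15 with upper-quartile scaling), and the median was 0.21. In 9 of the 15 all 3 Ube3am-/p+ mice lay above WT, beside 10.8% of all genes tested. Among the 13 genes from pyruvate onward, 10 were below 0, the median was -0.11, and 5 lay below WT in all 3 mice, beside 14.2% of all genes tested. Of the 14445 genes tested, 7273 were above 0 and 7172 below. The genes of glucose uptake, *Slc2a1* (0.02) and *Slc2a3* (0.08), were in neither group. Nor were the regulators *Pfkfb2* (-0.21) and *Pfkfb3* (-0.05), which act on glycolysis and were below 0. The median over all genes tested was 0.00, and over the 32 genes 0.09. The split was made with the values known, and is a description. GC content of the longest coding transcript ran from 48.9% (*Pfkp*) to 57.7% (*Pkm*) in the 15 genes. In the 13 it ran from 37.7% (*Slc16a7*) to 56.9% (*Pdk2*). Place in the pathway and GC content are therefore not separated by this split, whose values here are as counted. After the correction on coding transcripts the medians were 0.15 and -0.04. Summed over the 32 genes, the levels were 10261, 9540 and 9576 CPM in WT mice 1, 2 and 3, and 10615, 11511 and 11744 CPM in Ube3am-/p+ mice 1, 2 and 3. The sums did not overlap, but Ube3am-/p+ mouse 1 lay close to WT mouse 1. The labels give the mice only numbers and name no pairing, so ratios between mice of the same number, here and below, describe single libraries. Set side by side in this way, 14 of the 32 were higher in Ube3am-/p+ mouse 1 than in WT mouse 1, against 20 for the mice numbered 2 and 17 for the mice numbered 3.

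The first step is glucose uptake. *Slc2a1* encodes GLUT1, the glucose transporter of the blood-brain barrier and of glia, and *Slc2a3* encodes GLUT3, the main transporter of neurons. *Slc2a1* had means of 90.2 ± 4.9 CPM in WT and 90.1 ± 8.9 CPM in Ube3am-/p+ mice (SD, n = 3). *Slc2a3* had 120.1 ± 2.6 and 125.0 ± 2.1 CPM. Neither passed the test, with log2 fold changes of 0.02 (SE 0.10) and 0.08 (SE 0.08), and the genotypes overlapped for both.

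Hexokinase phosphorylates glucose and so keeps it in the cell. *Hk1*, the main hexokinase of brain, had 384, 308 and 298 CPM in WT mice 1, 2 and 3 and 398, 438 and 457 CPM in Ube3am-/p+ mice 1, 2 and 3. All 3 Ube3am-/p+ mice were above all WT mice, though Ube3am-/p+ mouse 1 and WT mouse 1 were 0.05 apart on the log2 scale. The log2 fold change of 0.40 (SE 0.10) gave an adjusted p of 0.0513 and missed the call, which DESeq2 made (adjusted p = 0.0117). After the correction on coding transcripts its value was 0.25 (adjusted p = 0.101). *Hk2*, the insulin-responsive form of muscle and fat, was scarce, with 5.64 to 8.27 CPM over the 6 mice and overlapping genotypes (log2 fold change 0.10, SE 0.22). Per kilobase of transcript, *Hk1* made up 98.4% of the hexokinase reads of this pair in WT and 98.7% in Ube3am-/p+ mice.

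Phosphofructokinase, the committed step, has 3 isozymes that assemble into mixed tetramers. *Pfkl*, the liver type, had 257, 218 and 211 CPM in WT mice 1, 2 and 3 and 278, 351 and 395 CPM in Ube3am-/p+ mice 1, 2 and 3. It was the gene of the 32 with the largest fold change, with no overlap, and its values in Ube3am-/p+ mice 2 and 3 were far above the rest. The log2 fold change was 0.60 (SE 0.12, adjusted p = 0.0362). Between the mice numbered 1, 2 and 3 the log2 ratios were 0.11, 0.69 and 0.90. *Pfkp*, the platelet type, had 182, 179 and 179 CPM in WT and 187, 210 and 204 CPM in Ube3am-/p+ mice, without overlap (log2 fold change 0.17, SE 0.08, adjusted p = 0.206). Its exons overlap those of *Pitrm1* on the opposite strand over 748 bases. *Pfkm*, the muscle type, overlapped between the genotypes, with a log2 fold change of 0.12 (SE 0.09).

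Within the phosphofructokinase family, the share of *Pfkl* was higher in Ube3am-/p+ mice. Counts per kilobase of the longest coding transcript put *Pfkl* at 29.3%, 27.5% and 27.1% of the 3 isozymes in WT mice 1, 2 and 3, and at 31.99%, 34.7% and 37.6% in Ube3am-/p+ mice 1, 2 and 3. *Pfkm* held 52.1% ± 0.15 in WT and 46.7% ± 1.8 in Ube3am-/p+ mice (SD, n = 3). The shares of *Pfkl* were higher and those of *Pfkm* lower in every Ube3am-/p+ mouse than in any WT mouse. The share of *Pfkp* overlapped, at 19.9% and 18.5%. Shares add up to 100%, so a higher share of 1 isozyme lowers the others. All shares in this text are as counted and were not corrected for GC content.

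**Figure D2:**
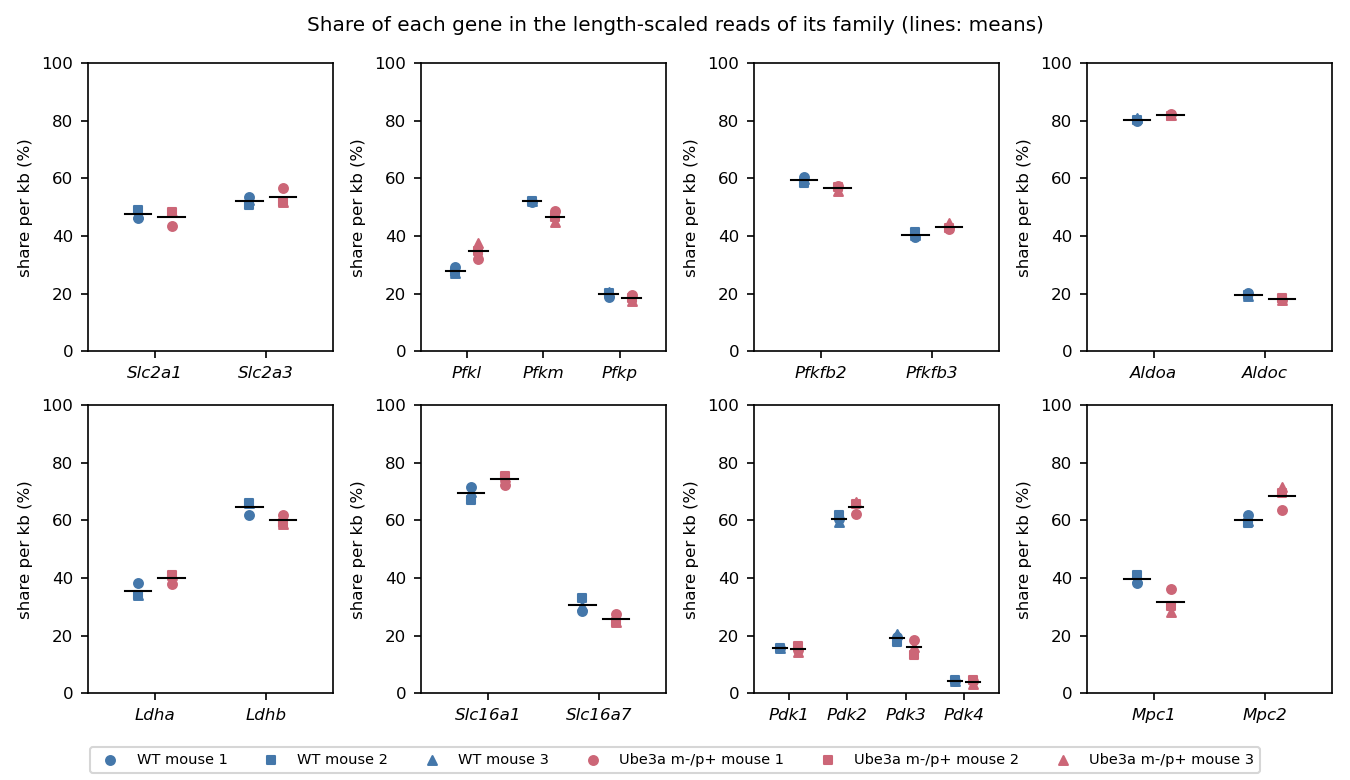
Each panel shows 1 enzyme or transporter family, with the share (%) of each gene in the counts per kilobase summed over the family, for each of 3 WT mice (blue) and 3 Ube3am-/p+ mice (red). Shapes give the mouse number and black lines the means. The share of *Pfkl* goes from a mean of 28.0% to 34.8% and that of *Mpc1* from 39.8% to 31.7%, while *Slc2a1* and *Slc2a3* overlap.

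The bifunctional enzymes of the PFKFB family set the level of fructose 2,6-bisphosphate, the strongest activator of phosphofructokinase. *Pfkfb2* had 72.8, 68.8 and 64.3 CPM in WT mice 1, 2 and 3 and 64.1, 59.0 and 52.8 CPM in Ube3am-/p+ mice 1, 2 and 3. The genotypes did not overlap, by a margin of 64.3 against 64.1 CPM, and the log2 fold change of -0.21 (SE 0.10, adjusted p = 0.199) did not pass the test. *Pfkfb3*, whose product favours synthesis of the activator, overlapped, with a log2 fold change of -0.05 (SE 0.10). The share of *Pfkfb2* in the pair was 59.5% ± 0.91 in WT and 56.7% ± 1.1 in Ube3am-/p+ mice (SD, n = 3), without overlap.

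Before phosphofructokinase, *Gpi1* turns glucose 6-phosphate into fructose 6-phosphate. It had 543, 524 and 519 CPM in WT mice 1, 2 and 3 and 581, 632 and 636 CPM in Ube3am-/p+ mice 1, 2 and 3, without overlap. Its log2 fold change of 0.24 (SE 0.08) had an adjusted p of 0.0956. It was under the fold threshold, which is 0.26 on the log2 scale.

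Aldolase and triose phosphate isomerase split fructose 1,6-bisphosphate and bring both pieces into the same form. *Tpi1* had 377, 323 and 325 CPM in WT mice 1, 2 and 3 and 406, 479 and 470 CPM in Ube3am-/p+ mice 1, 2 and 3. The genotypes did not overlap, and Ube3am-/p+ mouse 1 was the nearest to WT. Between the genotypes the log2 fold change was 0.42 (SE 0.09, adjusted p = 0.0387). *Aldoa*, the most abundant aldolase, had 1493, 1293 and 1327 CPM in WT and 1596, 1763 and 1849 CPM in Ube3am-/p+ mice 1, 2 and 3. It too was without overlap, with a log2 fold change of 0.36 (SE 0.09), but its adjusted p of 0.0507 missed the call, which DESeq2 made (adjusted p = 0.0074). After the correction on coding transcripts the value of *Aldoa* was 0.13 (adjusted p = 0.432). *Aldoc*, the brain aldolase found mainly in astrocytes and in some Purkinje cells, overlapped, with 602 ± 65 and 687 ± 61 CPM (SD, n = 3) and a log2 fold change of 0.21 (SE 0.10). *Aldoa* held 80.4% ± 0.54 of the aldolase pair per kilobase in WT and 82.0% ± 0.35 in Ube3am-/p+ mice, without overlap. That share is as counted. After the correction on coding transcripts the log2 fold change of *Aldoc* was 0.16, above the 0.13 of *Aldoa*.

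The later steps yield ATP and NADH. *Pkm*, the last enzyme, which forms pyruvate, had 1046, 891 and 902 CPM in WT mice 1, 2 and 3 and 1107, 1310 and 1306 CPM in Ube3am-/p+ mice 1, 2 and 3. Again there was no overlap, and Ube3am-/p+ mouse 1 was close to WT mouse 1. This gave a log2 fold change of 0.41 (SE 0.10, adjusted p = 0.0422). *Eno1*, the ubiquitous enolase, had 658, 702 and 695 CPM in WT mice 1, 2 and 3 and 764, 728 and 743 CPM in Ube3am-/p+ mice 1, 2 and 3. It did not overlap either and did not pass the test, with a log2 fold change of 0.14 (SE 0.08, adjusted p = 0.288). Unlike in *Pkm*, Ube3am-/p+ mouse 1 was the highest of the 6. *Eno2*, the neuronal enolase, and *Pgk1*, phosphoglycerate kinase, overlapped, with log2 fold changes of 0.12 (SE 0.08) and 0.19 (SE 0.09). *Pgam1*, phosphoglycerate mutase, was at 0.00 (SE 0.09), just below 0 with TMM scaling and just above it with upper-quartile scaling. Some of these counts depend on how reads shared with copies of the gene were treated. Of all stretches of 100 bases in their longest coding transcripts, 67.0% in *Pgk1*, 59.0% in *Eno1*, 39.7% in *Pgam1* and 9.82% in *Pkm* occurred in transcripts of other genes as well.

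The 3 genes that rose in the glycolytic steps are shown with the 250 bases before their start site, from RefSeq on GRCm38.p6, read 5′ to 3′ on the strand of the gene. These are chr10:78009808-78010057 (minus strand) for *Pfkl*, chr6:124814159-124814408 (minus strand) for *Tpi1* and chr9:59656326-59656575 (plus strand) for *Pkm*. Capitals mark the letters ACGTG or GCGTG, the core of the hypoxia response element bound by HIF, which is known to act on many glycolytic genes. They were searched on both strands.
Pfkl: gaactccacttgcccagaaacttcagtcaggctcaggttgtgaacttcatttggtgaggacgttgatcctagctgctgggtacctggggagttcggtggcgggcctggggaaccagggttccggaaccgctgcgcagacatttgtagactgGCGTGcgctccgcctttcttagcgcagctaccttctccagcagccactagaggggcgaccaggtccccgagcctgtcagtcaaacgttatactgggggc
Tpi1: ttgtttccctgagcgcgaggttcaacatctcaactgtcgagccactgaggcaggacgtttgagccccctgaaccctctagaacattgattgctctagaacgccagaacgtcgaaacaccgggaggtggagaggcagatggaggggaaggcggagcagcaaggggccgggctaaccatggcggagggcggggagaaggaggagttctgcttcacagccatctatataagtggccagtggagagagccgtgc
Pkm: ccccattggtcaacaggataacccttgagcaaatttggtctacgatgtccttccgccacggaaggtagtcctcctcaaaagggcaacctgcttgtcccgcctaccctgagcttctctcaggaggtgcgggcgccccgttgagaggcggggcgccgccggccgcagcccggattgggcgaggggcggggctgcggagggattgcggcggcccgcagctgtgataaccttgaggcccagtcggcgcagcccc

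The *Pfkl* window held 1 such core, 99 bases before the start site, and the windows of *Tpi1* and *Pkm* held none. The start sites are those of RefSeq. In GENCODE M21 the genes begin at position 78010083 (*Pfkl*), 124814296 (*Tpi1*) and 59656368 (*Pkm*). By that annotation the *Pfkl* window lies inside the gene, and those of *Tpi1* and *Pkm* lie partly inside it. RefSeq windows were at hand for 30 of the 32 genes, the others being *Slc16a7* and *Slc2a3*. A core was present in 23 of the 30 (76.7%), against 38.6% of the windows of 27025 genes. The letters CACGTG, an E-box that itself contains ACGTG, were in 5 of the 30 (16.7%), against 6.05% of all windows. The windows of the 30 were richer in GC, with a median of 62.6% against 52.0% for all windows, and these motifs are made mostly of G and C.

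*Gapdh*, glyceraldehyde 3-phosphate dehydrogenase, is often used as the reference in RT-qPCR, and was so used in the study. It had 1412, 1322 and 1266 CPM in WT mice 1, 2 and 3 and 1493, 1561 and 1590 CPM in Ube3am-/p+ mice 1, 2 and 3. All 3 Ube3am-/p+ mice were above all WT mice, and the fold change fitted on TMM-scaled counts was 1.18. The log2 fold change of 0.23 (SE 0.08, adjusted p = 0.105) did not pass the test. Per 100 counts of *Gapdh*, 6 of the other genes had a log2 ratio between the genotypes above 0 and 25 below 0. On that scale *Pfkl* went from 18.2, 16.5 and 16.7 in WT mice 1, 2 and 3 to 18.6, 22.5 and 24.8 in Ube3am-/p+ mice 1, 2 and 3, still without overlap, and *Hk1* and *Gpi1* overlapped. The gene has many copies, and 78.0% of the stretches of 100 bases in its longest coding transcript also occurred in transcripts of 84 other genes.

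The study's primers for *Gapdh* are shown because RT-qPCR values scaled to *Gapdh* carry any difference in it. They matched 5 of the 13 transcripts of *Gapdh* in GENCODE M21 with a product of 95 bp.
forward: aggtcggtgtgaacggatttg
reverse: ggggtcgttgatggcaaca
Both primers also occurred together in annotated transcripts of 42 other genes, the forward primer in 53 and the reverse primer in 92.

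Lactate dehydrogenase converts pyruvate and lactate into each other. *Ldha*, the subunit that favours lactate formation, had 205, 202 and 208 CPM in WT mice 1, 2 and 3 and 219, 234 and 235 CPM in Ube3am-/p+ mice 1, 2 and 3. It was without overlap, and did not pass the test (log2 fold change 0.18, SE 0.08, adjusted p = 0.171). *Ldhb*, the subunit that favours pyruvate formation, had 269 ± 28 and 247 ± 8 CPM (SD, n = 3) and overlapped, with a log2 fold change of -0.11 (SE 0.09). The share of *Ldha* per kilobase was 35.4% ± 2.4 in WT and 40.0% ± 1.7 in Ube3am-/p+ mice, and overlapped, as WT mouse 1 had 38.3% and Ube3am-/p+ mouse 1 had 38.1%.

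Monocarboxylate transporters pass lactate and pyruvate through the cell membrane. *Slc16a7* (MCT2), the high-affinity transporter of neurons, had 46.9, 57.9 and 59.1 CPM in WT mice 1, 2 and 3 and 43.5, 32.3 and 38.4 CPM in Ube3am-/p+ mice 1, 2 and 3. It had the largest fall of the 32 genes, with no overlap, and again the mice numbered 1 were near each other. The log2 fold change was -0.51 (SE 0.12, adjusted p = 0.0466). *Slc16a1* (MCT1), found in endothelium and glia, had 47.4, 47.3 and 55.1 CPM in WT mice 1, 2 and 3 and 46.0, 39.9 and 46.7 CPM in Ube3am-/p+ mice 1, 2 and 3. It was lower without overlap but did not pass the test (log2 fold change -0.16, SE 0.11, adjusted p = 0.369). *Slc16a7* made up 30.6% ± 2.3 of the pair per kilobase in WT and 25.7% ± 1.7 in Ube3am-/p+ mice (SD, n = 3), without overlap. With a transcript of 10981 bases and a GC content of 37.7%, the lowest of the 32, *Slc16a7* is an unusual member.

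The mitochondrial pyruvate carrier is a dimer of MPC1 and MPC2. *Mpc1* had 35.1, 32.3 and 35.6 CPM in WT mice 1, 2 and 3 and 28.0, 27.7 and 24.8 CPM in Ube3am-/p+ mice 1, 2 and 3. The genotypes did not overlap, and unlike the called genes *Mpc1* differed between the mice numbered 1 about as much as between the others, with log2 ratios of -0.33, -0.22 and -0.52. The log2 fold change was -0.34 (SE 0.11), and the adjusted p of 0.0825 missed the call. *Mpc2* had 55.5 ± 5.6 and 62.2 ± 8.5 CPM (SD, n = 3) and overlapped, with a log2 fold change of 0.19 (SE 0.12). The share of *Mpc1* in the pair per kilobase was 39.8% ± 1.4 in WT and 31.7% ± 4.1 in Ube3am-/p+ mice, without overlap. This pair was added after the values were seen. *Mpc1* shares 18.8% of its stretches of 100 bases with 1 other gene, and 480 bases of its exons overlap the noncoding gene *4930506C21Rik* on the opposite strand.

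The pyruvate dehydrogenase complex makes acetyl-CoA. The genes of its first enzyme, *Pdha1* and *Pdhb*, overlapped between the genotypes, with log2 fold changes of -0.04 (SE 0.08) and -0.03 (SE 0.09). *Dlat*, its second enzyme, had 126, 126 and 140 CPM in WT mice 1, 2 and 3 and 120, 118 and 117 CPM in Ube3am-/p+ mice 1, 2 and 3, which did not overlap. The difference was small (log2 fold change -0.13, SE 0.08, adjusted p = 0.365). Pyruvate dehydrogenase kinases switch the complex off. *Pdk3* had 29.1, 27.8 and 33.7 CPM in WT mice 1, 2 and 3 and 26.8, 20.2 and 22.9 CPM in Ube3am-/p+ mice 1, 2 and 3, again without overlap. Its log2 fold change of -0.36 (SE 0.13) was the second lowest of the 32, but the adjusted p was 0.111. *Pdk1*, *Pdk2* and *Pdk4* overlapped, with log2 fold changes of -0.09 (SE 0.10), 0.02 (SE 0.09) and -0.24 (SE 0.18). *Pdk2*, the main kinase gene of the hippocampus by this measure, held 60.6% ± 1.2 of the 4 kinases per kilobase in WT and 64.7% ± 2.3 in Ube3am-/p+ mice (SD, n = 3), without overlap. That share is as counted. After the correction on coding transcripts the log2 fold change of *Pdk2* was -0.17. Those of *Pdk1*, *Pdk3* and *Pdk4* were then 0.03, -0.31 and -0.10.

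**Figure D3:**
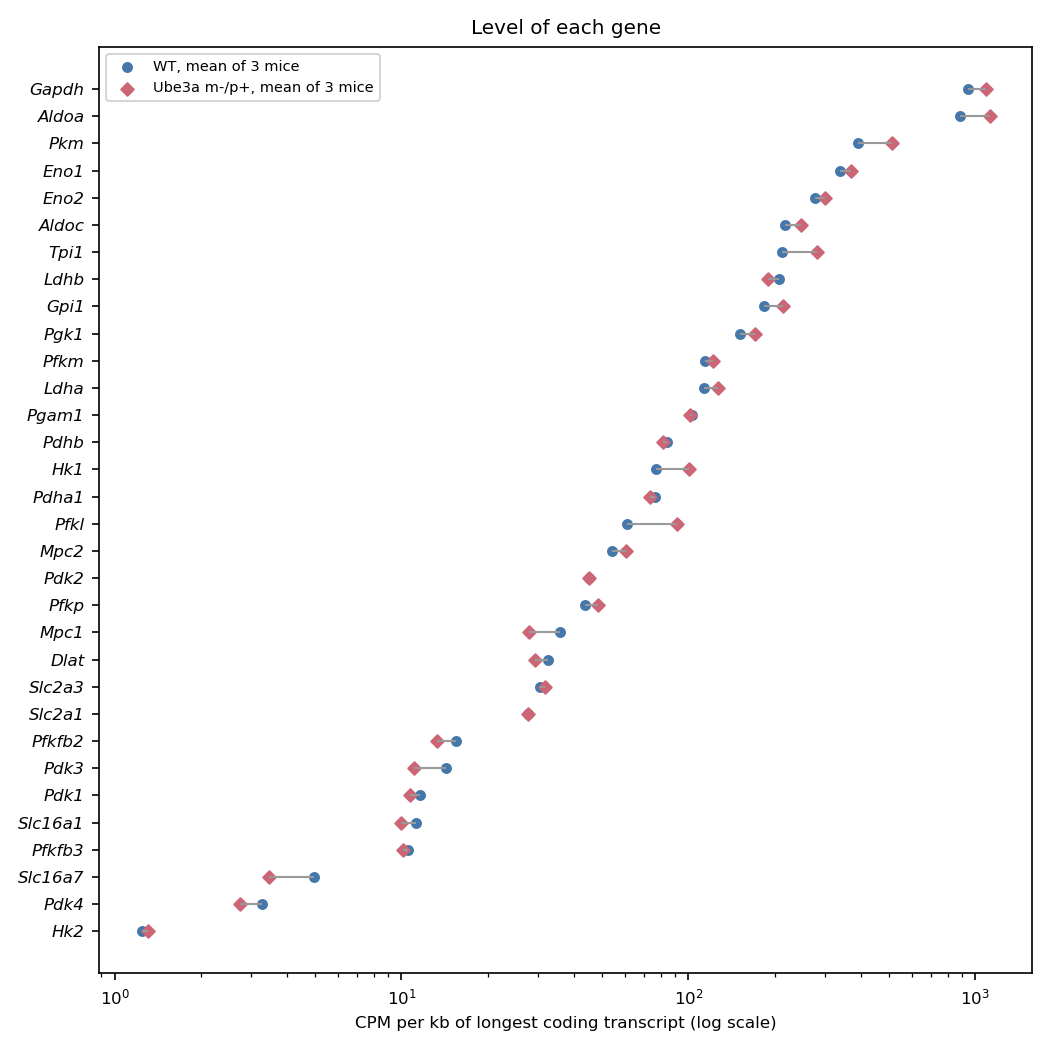
Mean CPM per kilobase of the longest coding transcript, on a log axis, for the 32 genes in order of their WT level, with WT as blue circles and Ube3am-/p+ as red diamonds, 3 mice each. Levels run from 1.24 for *Hk2* to 939 for *Gapdh* in WT, and the order of the genes is nearly the same in both genotypes.

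Levels of different genes were compared per kilobase of the longest coding transcript. The highest in WT mice were *Gapdh* with 939 CPM per kilobase, *Aldoa* with 885 and *Pkm* with 389, and the lowest were *Hk2* with 1.24, *Pdk4* with 3.28 and *Slc16a7* with 4.97. In Ube3am-/p+ mice *Aldoa*, with 1121, was above *Gapdh*, with 1090. Per kilobase, *Aldoa* was at 96.9%, 89.7% and 96.1% of *Gapdh* in WT mice 1, 2 and 3, and at 98.0%, 104% and 107% in Ube3am-/p+ mice 1, 2 and 3. It was thus below *Gapdh* in each WT mouse, though the ranges of both genes over the WT mice overlapped (835 to 964 for *Aldoa* and 892 to 995 CPM per kilobase for *Gapdh*). Among the isozymes, genes held to be neuronal and genes held to be glial were both detected, in shares that differed between families. In WT the neuronal *Eno2* made up 45.1% of the enolase pair per kilobase, and the ubiquitous *Eno1* 54.9%. *Slc2a3* made up 52.3% of the glucose transporter pair, *Aldoc* 19.6% of the aldolase pair and *Slc16a7* 30.6% of the monocarboxylate transporter pair.

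GC content of the transcripts went with the fold changes of these genes. Over the 32, the GC content of the longest coding transcript ran from 37.7% to 57.7%, with a median of 51.9% against 50.3% for all genes tested. It was related to the log2 fold change with a Spearman rho of 0.76, and over the 14332 genes tested that had a transcript with 0.64. The genes share the same 6 libraries and so are not independent points. The genes that rose had 57.1% (*Pfkl*), 53.5% (*Tpi1*) and 57.7% (*Pkm*) GC, and *Slc16a7* had the lowest content. After each library was corrected for GC content and length on coding transcripts, 93 genes were called (0.649% of 14332), of which 1, *Pfkl*, was among the 32. Its corrected log2 fold change was 0.42 (SE 0.09, adjusted p = 0.0294). With the longest transcript of any type in place of the coding one, 97 genes were called (0.677%), and again 1, *Pfkl*, of the 32.

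The other calls did not hold after the correction on coding transcripts. *Tpi1* kept a log2 fold change of 0.28 (SE 0.07, adjusted p = 0.0607) and *Pkm* one of 0.21 (SE 0.07, adjusted p = 0.163). *Slc16a7* went from -0.51 to -0.11 (SE 0.10, adjusted p = 0.676). *Gapdh* went to 0.00 (SE 0.07) on its coding transcript, and to 0.15 with the longest transcript, which retains an intron. *Mpc1* was among the genes whose value grew, to -0.39 (SE 0.10, adjusted p = 0.0737), as was *Ldhb*, to -0.26 (SE 0.09, adjusted p = 0.174). The median over the 32 was 0.00 after the correction, and the 15 genes up to pyruvate kept a median of 0.15 with 11 above 0. The median of the 13 genes from pyruvate onward went from -0.11 to -0.04. In 24 of the 32 genes the value became smaller in size and in 9 it changed sign. Whether the relation to GC content came from the libraries or from the mice was not tested.

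**Figure D4:**
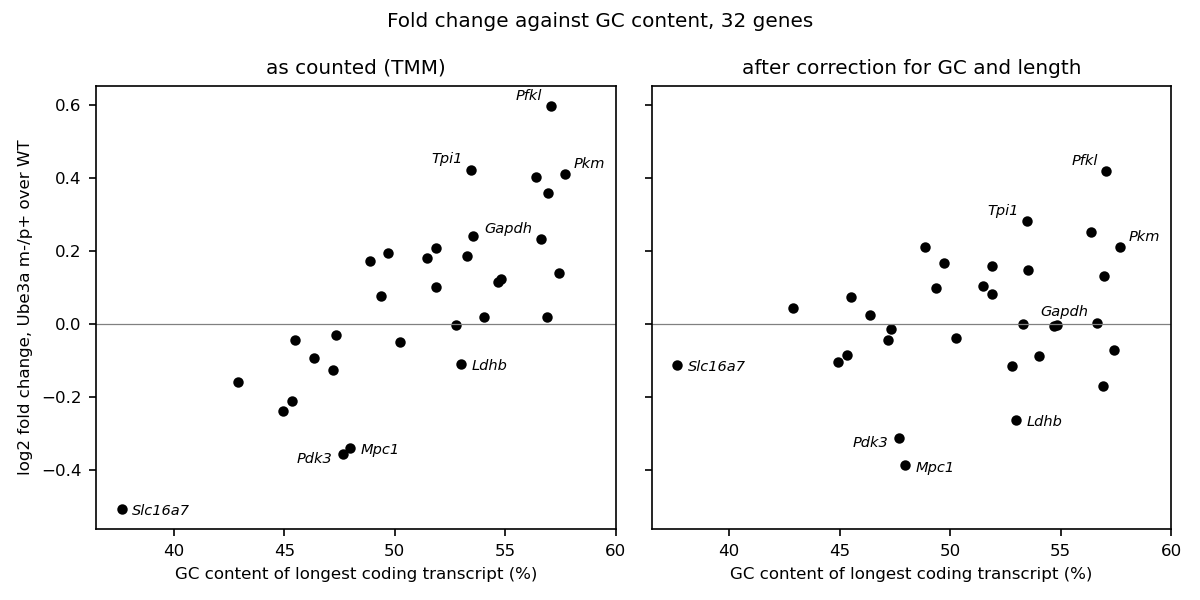
Log2 fold change of the 32 genes (Ube3am-/p+ over WT, vertical axis) against the GC content of the longest coding transcript (%, horizontal axis), as counted with TMM scaling (left) and after correction for GC content and length (right). Each point is 1 gene. The Spearman rho is 0.76 on the left and 0.30 on the right, where *Pfkl* remains the highest and *Mpc1* the lowest.

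**Figure D5:**
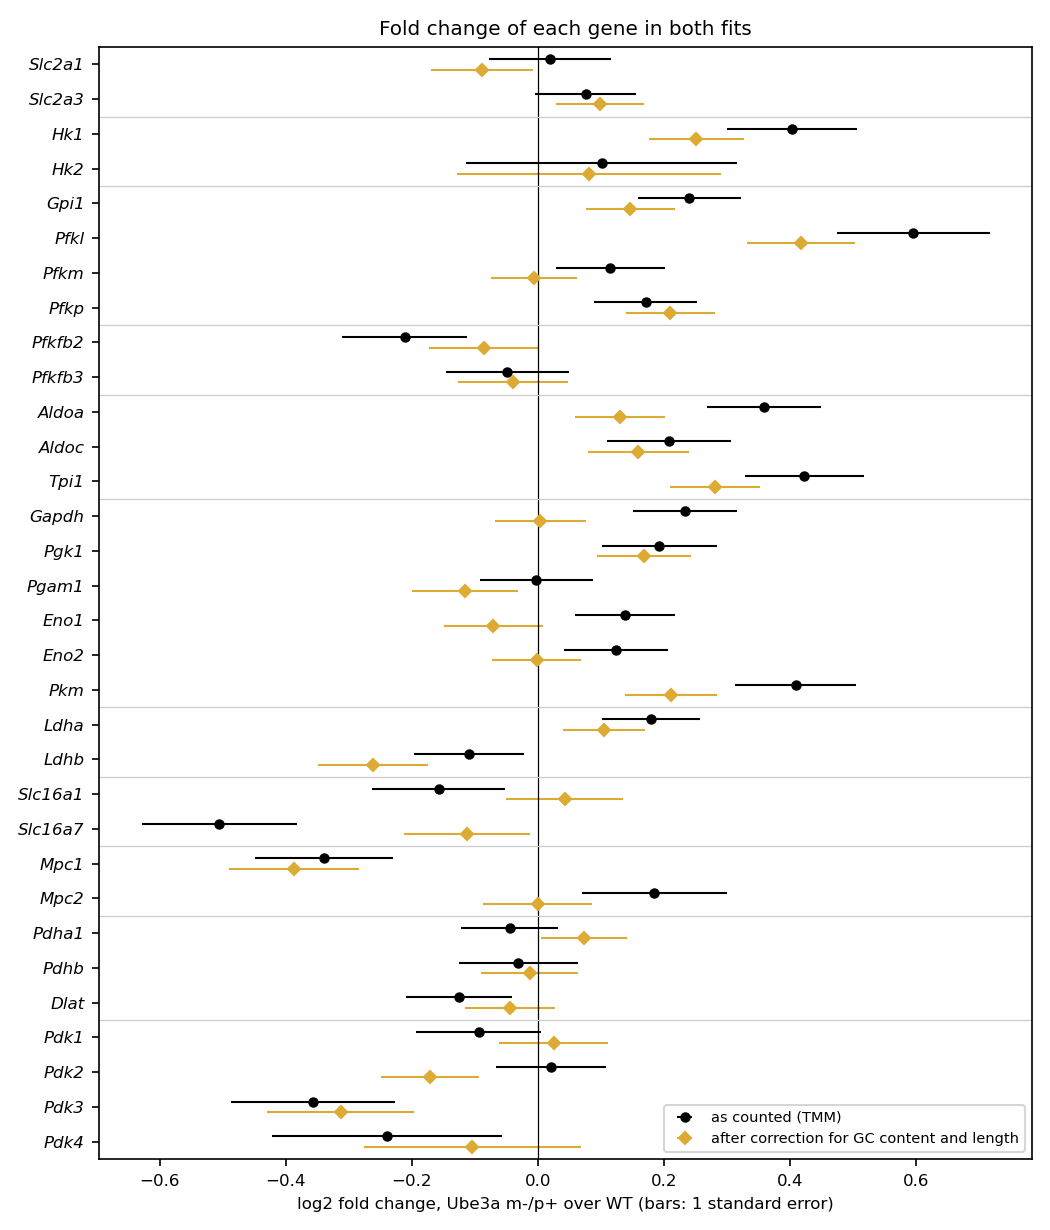
Log2 fold change with 1 standard error (bars) for the 32 genes in pathway order, from 3 WT and 3 Ube3am-/p+ mice, as counted (black circles) and after correction for GC content and length on coding transcripts (yellow diamonds). *Pfkl* is at 0.60 and 0.42, *Slc16a7* moves from -0.51 to -0.11, and *Mpc1* and *Pdk3* stay below -0.30.

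Genes of neighbouring pathways showed few calls, as did all genes tested, of which 1.02% were called higher and 0.99% lower. Of 11 other isozymes and regulators of lower glycolysis tested, 0 were called, 1 had an unadjusted p below 0.05 and 10 had a log2 fold change above 0. The smallest p values of this list were those of *Pgam2*, the muscle mutase (0.62, SE 0.22, adjusted p = 0.1), and *Pgam5*, a mitochondrial phosphatase (0.21, SE 0.10, adjusted p = 0.217). In the pentose phosphate pathway 1 of 7 genes was called, *Tkt*, transketolase, which rose from 97.9, 90.5 and 92.3 CPM in WT mice 1, 2 and 3 to 118, 118 and 121 CPM in Ube3am-/p+ mice 1, 2 and 3. Its log2 fold change was 0.36 (SE 0.08, adjusted p = 0.0408), and 0.26 after the correction (adjusted p = 0.0822). Between the mice numbered 1 the difference in *Tkt* was smaller than between those numbered 2 or 3. On the log2 scale it was larger than in the called genes of glycolysis.

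Of 5 other genes of the pyruvate dehydrogenase complex, 0 were called, 1 had an unadjusted p below 0.05 and 3 were below 0. *Pdp2*, a phosphatase that switches the complex on, had a log2 fold change of -0.51 (SE 0.15, adjusted p = 0.0688), and *Dld*, the third enzyme, one of -0.20 (SE 0.10, adjusted p = 0.207). No gene was called among 9 other genes of hexose uptake and phosphorylation, 7 of monocarboxylate transport, 6 of gluconeogenesis and pyruvate carboxylation, 14 of glycogen metabolism, 16 of the citric acid cycle, 8 of the NADH shuttles and 10 hypoxia-induced genes outside glycolysis. At an unadjusted p below 0.05, edgeR gave 1, 1, 0, 2, 0, 3 and 2 genes of these lists, in the same order. Of all genes tested, 12.2% were higher and 12.4% lower by that measure. DESeq2 also called 0 genes in each of these lists and in the lists of lower glycolysis and of the pyruvate dehydrogenase complex. The pairs with the smallest p, with log2 fold changes, were *Slc2a13* (-0.22) and *Slc2a8* (0.21) in hexose uptake, *Bsg* (0.19) and *Slc16a3* (0.54) in transport, *Pcx* (0.16) and *G6pc3* (0.16) in gluconeogenesis, *Ugp2* (-0.29) and *Phka1* (-0.28) in glycogen metabolism, *Sdha* (0.21) and *Mdh2* (0.13) in the citric acid cycle, and *Gpd1* (0.30) and *Got1* (0.21) in the shuttles. Over all the pathway lists, the median log2 fold change lay between -0.16 (the pyruvate dehydrogenase complex) and 0.19 (monocarboxylate transport). Among the hypoxia-induced genes, *Kdm3a*, a histone demethylase, had a log2 fold change of -0.43 (SE 0.13, adjusted p = 0.0733) and *Car9*, a carbonic anhydrase with under 2 CPM in every mouse, one of 1.28 (SE 0.45, adjusted p = 0.105).

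Markers of cell types were measured beside these genes, since several isozymes differ between neurons and glia. The 8 astrocyte markers summed to 4635 to 5170 CPM in WT and 4030 to 4353 CPM in Ube3am-/p+ mice, without overlap. EdgeR called 0 of the 8, and 5 were lower at an unadjusted p below 0.05. The log2 fold change was above 0 for 2 of the 8, *Gfap* (0.11) and *Aldh1l1* (0.03). The smallest p values were those of *Slc1a2*, a glutamate transporter (log2 fold change -0.32, adjusted p = 0.0513, and called lower by DESeq2), and *Gja1*, a gap junction protein (-0.25). After the correction on coding transcripts these were -0.16 and -0.12, and the median of the list went from -0.24 to -0.10. The 8 oligodendrocyte markers summed to 8219 to 8339 CPM in WT and 6872 to 7832 CPM in Ube3am-/p+ mice, and the 8 endothelial markers to 295 to 309 CPM and 257 to 282 CPM, with 0 called in either list by edgeR and 3 genes each at an unadjusted p below 0.05. *Mobp*, a myelin protein gene, had a log2 fold change of -0.24 as counted, and was called lower after the correction on coding transcripts (-0.32, adjusted p = 0.0485). The smallest p values among the endothelial markers were those of *Slco1a4* (-0.41) and *Cldn5* (0.46), both called by DESeq2. The 8 neuron markers overlapped, with 5789 to 5862 CPM in WT and 5563 to 5914 CPM in Ube3am-/p+ mice, and 3 of the genes were lower and 3 higher at an unadjusted p below 0.05, with 0 called by edgeR and 3 by DESeq2. *Gad2*, an enzyme of GABA synthesis, had a log2 fold change of -0.37 and *Slc17a7*, the vesicular glutamate transporter of excitatory neurons, one of 0.35. In RNA of the whole tissue, fewer cells of a type and less RNA per cell cannot be told apart. The 8 microglia markers summed to 408 to 445 CPM in WT and 377 to 396 CPM in Ube3am-/p+ mice (0 called by edgeR, 1 by DESeq2 and 3 at an unadjusted p below 0.05), led by *P2ry12* (-0.49) and *C1qa* (0.47). The 8 choroid plexus markers varied between mice, with 621, 106 and 2218 CPM in WT mice 1, 2 and 3 and 2305, 1637 and 111 CPM in Ube3am-/p+ mice 1, 2 and 3, with 0 called by edgeR or DESeq2 and 0 at an unadjusted p below 0.05, led by *Otx2* (0.77) and *Kl* (0.43). Of the 8 markers of meninges and fibroblasts all had a log2 fold change above 0, and 1, *Col1a1*, was called (0.73, SE 0.17, adjusted p = 0.0416), but not after the correction (0.54, adjusted p = 0.0822). The part of these markers in the values of the 32 genes was not tested.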

How the data were processed

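Hippocampal RNA of 3 WT and 3 Ube3am-/p+ male mice was sequenced, each mouse giving 1 library. What the authors deposited were counts, whole numbers of reads per gene symbol, 1 table per mouse, not normalized and not pooled. The submitters' processing notes name STAR 2.7.4a, HTSeq and mm10. The HTSeq version, the annotation and the strand setting are not given in the sources used here, so reads of genes that overlap on opposite strands may not be separated. Lines of reads on no gene, ambiguous reads and reads with more than 1 alignment stayed out of library sizes. The last were 3.71% to 5.77% of the reads of a library. Columns of other samples numbered 0.

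CPM were computed on the total gene counts of a library, and fold changes on TMM-scaled counts. In R 4.3.3, filterByExpr kept 14445 genes, to which edgeR (4.0.16) fitted its robust quasi-likelihood model by genotype alone. P-values were two-sided and adjusted by Benjamini-Hochberg over all of these. Calls needed an adjusted p below 0.05 together with a fold change over 1.2. The biological coefficient of variation was 0.102, and standard errors of the log2 fold changes of the 32 genes ran from 0.077 to 0.215. Levels between genes and shares within families used counts per kilobase of the longest protein-coding transcript of GENCODE M21 (GRCm38), in place of the longest of any type, which is not coding in 7 of the 32 genes. For the correction, the deviation of a library from the 6-library mean was modelled by natural splines (5 degrees of freedom each) of GC content and of length, over 14332 genes (99.2% of those kept), and the fitted part was used as an offset. Shared stretches of 100 bases were counted over GENCODE transcripts, and promoter windows came from RefSeq (GRCm38.p6).

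The alternatives were DESeq2 (1.42.0), other scaling and filters, the replicate number as a block, the corrections, leaving out each mouse, and other thresholds. Leaving out both mice numbered 1, the correction on coding transcripts and shares by the longest transcript were added after seeing the data. The 32 genes and the lists were chosen with earlier results of these data known. All 32 genes and *Ube3a* are named, with values per mouse for those called, those without overlap, the 3 largest rises and falls and *Gapdh*. In other pathway and marker lists the called genes are named, or else the pair with the smallest p. The value of 1 gene covered by this rule is not reported here.

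The edgeR, DESeq2 and longest-transcript corrected edgeR fits were first run on simulated counts with 200 genes changed 2-fold. Without a GC trend, edgeR found 198 and DESeq2 195 of these, with 7 and 5 false calls. With a GC trend that differed between the genotypes, edgeR as counted found 197, with 418 false calls. After the correction it found 199, with 8 false calls. The changed genes were drawn without regard to GC content, and the simulated trend was linear in it. The simulation therefore cannot show how the correction treats smaller changes, or changes linked to GC content. The replicate block and the correction on coding transcripts were not run on simulated counts. Deviations from the genotype means of mice with the same number were correlated by -0.285, -0.177 and -0.311. The GC trends of the libraries ran opposite ways in the genotypes, which enters these correlations. They therefore cannot decide whether the numbers pair the mice.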

Additional observations from a re-analysis of the deposited data

How the results depend on the processing

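Both the count of calls and the fold changes depended on the processing. Against 290 genes called, of which 3 of the 32 were higher and 1 lower, DESeq2 called 951 genes (5 higher, 1 lower of the 32), and the same edgeR test called 1176 without a filter (5 higher), 5 of the 32 higher with DESeq2's size factors or with at least 10 counts in every library, and 2832 genes at an unadjusted p below 0.05 with the fold threshold (5 higher, 3 lower). With the replicate number as a block, edgeR called 0 genes, so 0 of the 32 higher and 0 lower, while 9 of the 32 had an unadjusted p below 0.05, beside 16.8% of all genes. The labels share only these numbers, and whether they pair the mice could not be decided. After the GC and length correction on the longest transcripts 97 genes were called (1 higher, 0 lower of the 32), with the replicate block added 17 (0 and 0), and on coding transcripts 93 (1 and 0). Leaving out 1 mouse gave 0 to 2582 genes, 0 to 8 of the 32 higher and 0 to 2 lower. Without both mice numbered 1 there were 4138 genes, 10 of the 32 higher, 3 lower and 20 at an unadjusted p below 0.05, beside 41.4% of all genes. No setting called a gene of the 32 in the opposite direction.

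The median log2 fold change of the 32 was 0.031 after the correction on longest transcripts, 0.029 with the replicate block added and 0.0019 on coding transcripts, against 0.089 as counted. The sign of some genes, none of them called, turned. On longest transcripts, with the replicate block added, and on coding transcripts, the values were -0.0996, -0.102 and -0.0882 for *Slc2a1*, -0.0193, -0.0196 and -0.0057 for *Pfkm*, -0.0843, -0.0839 and -0.0706 for *Eno1*, -0.0164, -0.0170 and -0.0019 for *Eno2*, 0.0276, 0.0253 and 0.0426 for *Slc16a1*, 0.0523, 0.0535 and 0.0731 for *Pdha1*, 0.0119, 0.0070 and 0.0252 for *Pdk1*, and -0.186, -0.184 and -0.171 for *Pdk2*. *Pdhb* turned to 0.0340 and 0.0317 in the first pair of these, and *Mpc2* to -0.00034 on coding transcripts. *Pgam1* turned to 0.0104 with upper-quartile scaling and to 0.0095 without a filter. When 1 mouse was left out, values ran from -0.0221 to 0.108 for *Slc2a1*, -0.0094 to 0.262 for *Hk2*, -0.0723 to 0.0562 for *Pgam1*, -0.111 to 0.0230 for *Pdhb* and -0.0147 to 0.0709 for *Pdk2*. The causes were not tested.

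With 3 mice per genotype, a gene with few reads such as *Hk2*, with 46 to 88 counts in a library, had a standard error of 0.22 on the log2 scale, against 0.08 for *Pdha1*, so that a log2 difference like that of *Pkm* would be under 2 standard errors in it. Genes with near-identical copies (*Gapdh*, *Pgk1*, *Eno1*, *Pgam1*) and genes overlapped on the opposite strand (*Pfkp*, *Pdha1*, *Mpc1*) have uncertain counts. *Pfkl* was called in 11 of the 17 alternative fits and kept its sign in all 17. Shares within families kept their direction without division by length, where that of *Aldoa* differed by 2.15 percentage points between the genotypes in place of 1.58.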
